A study of Mus musculus with 12 samples.

Results

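Cytosolic heat shock chaperones, 9 genes that fold, refold and hold proteins in the cytosol together with the transcription factor that induces them, were followed in bone marrow-derived macrophages (BMDMs) of WT and *Keap1*-deficient mice. The genes were *Hsf1*, *Hspa1a*, *Hspa1b*, *Hspa8*, *Hsph1*, *Dnajb1*, *Hsp90aa1*, *Hsp90ab1* and *Hspb1*, chosen by name, and their 15 probes were found by the accession given for each probe. They are 9 of the 32301 genes or transcripts on the array, and all 9 were among the 22367 that were tested. BMDMs are macrophages grown from bone marrow cells in 7 days with M-CSF. The mice were 8 weeks old and on a C57BL/6 background. KpCKO mice carry *Keap1* flox/flox::LysM-Cre, in which the lysozyme M locus drives Cre in myeloid cells, to delete the gene of Keap1, the adaptor that marks the transcription factor Nrf2 for degradation. The other mice are labelled WT, with no Cre or floxed allele named for them. Cells of each genotype were left untreated (Con), given LPS and IFNγ for 6 h (M1) or given IL-4 for 6 h (M2), which made 6 groups. Each group had 2 arrays, since 2 separate cultures were made. Both mice of culture 1 were male and both of culture 2 female, 1 of each genotype, and the 3 stimuli of a genotype in a culture came from the same mouse.

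Heat shock factor 1, the product of *Hsf1*, is held inactive by chaperones and, when unfolded proteins occupy them, binds heat shock elements and drives chaperone genes. Hsp70 proteins bind exposed hydrophobic stretches in a cycle of ATP hydrolysis, which J-domain proteins such as Dnajb1 start and exchange factors such as Hsph1 end, and Hsp90 proteins receive kinases and receptors for their last folding steps. In macrophages these chaperones are known for handling stress and for carrying signalling proteins of the inflammatory response, and Nrf2 and Hsf1 are known as parallel branches of the stress response.

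The promoters are shown first, since the heat shock element is what the family is known to share. RefSeq entries on build GRCm38.p6 were at hand for 5 of the 9 genes, and none is shown for *Hsf1*, *Hspa8*, *Hsp90aa1* and *Hsp90ab1*. The 250 bases before the start site are printed 5′ to 3′ on the strand of the gene, and capitals mark a pair of heat shock element units, searched on both strands as GAANNTTC or TTCNNGAA.
*Hspa1a*, chr17:34972157-34972406, minus strand: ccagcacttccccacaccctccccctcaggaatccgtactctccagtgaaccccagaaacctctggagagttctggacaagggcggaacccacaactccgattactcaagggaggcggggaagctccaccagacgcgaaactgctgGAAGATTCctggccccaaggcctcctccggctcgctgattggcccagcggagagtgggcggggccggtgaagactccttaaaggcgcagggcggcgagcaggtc
*Hspa1b*, chr17:34959239-34959488, minus strand: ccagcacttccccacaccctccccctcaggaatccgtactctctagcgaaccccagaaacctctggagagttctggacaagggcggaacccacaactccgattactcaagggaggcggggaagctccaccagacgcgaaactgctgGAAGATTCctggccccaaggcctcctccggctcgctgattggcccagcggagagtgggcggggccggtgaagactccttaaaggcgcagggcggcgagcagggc
*Hsph1*, chr5:149636337-149636586, minus strand: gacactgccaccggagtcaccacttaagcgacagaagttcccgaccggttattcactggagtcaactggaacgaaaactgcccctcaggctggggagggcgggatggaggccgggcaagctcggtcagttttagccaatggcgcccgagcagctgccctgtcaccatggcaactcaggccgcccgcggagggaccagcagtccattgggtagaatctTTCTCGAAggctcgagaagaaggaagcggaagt
*Dnajb1*, chr8:83607925-83608174, plus strand: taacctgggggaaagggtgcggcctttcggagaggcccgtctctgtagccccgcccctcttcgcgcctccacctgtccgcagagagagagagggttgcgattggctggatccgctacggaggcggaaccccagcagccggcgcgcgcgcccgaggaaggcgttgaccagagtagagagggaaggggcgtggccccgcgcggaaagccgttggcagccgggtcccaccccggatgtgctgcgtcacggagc
*Hspb1*, chr5:135887669-135887918, plus strand: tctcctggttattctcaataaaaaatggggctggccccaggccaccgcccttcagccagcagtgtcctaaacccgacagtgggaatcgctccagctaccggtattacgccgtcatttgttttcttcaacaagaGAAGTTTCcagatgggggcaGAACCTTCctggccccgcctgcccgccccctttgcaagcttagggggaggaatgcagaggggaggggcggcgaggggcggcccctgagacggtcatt
A pair of units occurred in 12.8% of all 32851 promoters of this length. It occurred at −104 to −97 in *Hspa1a* and in *Hspa1b*, at −33 to −26 in *Hsph1*, and at −117 to −110 and −97 to −90 in *Hspb1*. These letters were not in the window of *Dnajb1*. CCAAT, found on either strand in 33.9% of promoters, was in the windows of *Hspa1a*, *Hspa1b*, *Hsph1* and *Dnajb1*. The antioxidant responsive element TGACNNNGC or TGAGNNNGC, the letters that Nrf2 is known to bind, was in 23.0% of promoters. It was found at −132 to −124 and −96 to −88 in *Hsph1* and at −15 to −7 in *Dnajb1*. *Hsph1* and *Dnajb1* each had another start site, whose window is not printed. Counted from that of *Hsph1*, the heat shock pair lay at −54 to −47 and the antioxidant elements at −153 to −145 and −117 to −109. The other window of *Dnajb1* held none of the letters searched. The windows of *Hspa1a* and *Hspa1b* differed at 3 of 250 bases. The pair are near-identical copies on chromosome 17, and whether a probe of one also binds transcripts of the other was not tested, since no probe sequence was used here.

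All values below are log2 of the background-subtracted signal relative to the 75th percentile of the array, so that 0 is the signal of the probe at that percentile and 1 unit is a change of 2-fold. A gene with several probes is given by its brightest. All 15 probes were well above background on all 12 arrays. Levels of different genes are not compared, since probes differ in brightness. Where 2 groups are said not to overlap, this is a description only. The share of all genes whose groups did not overlap was not counted.

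**Figure D1:**
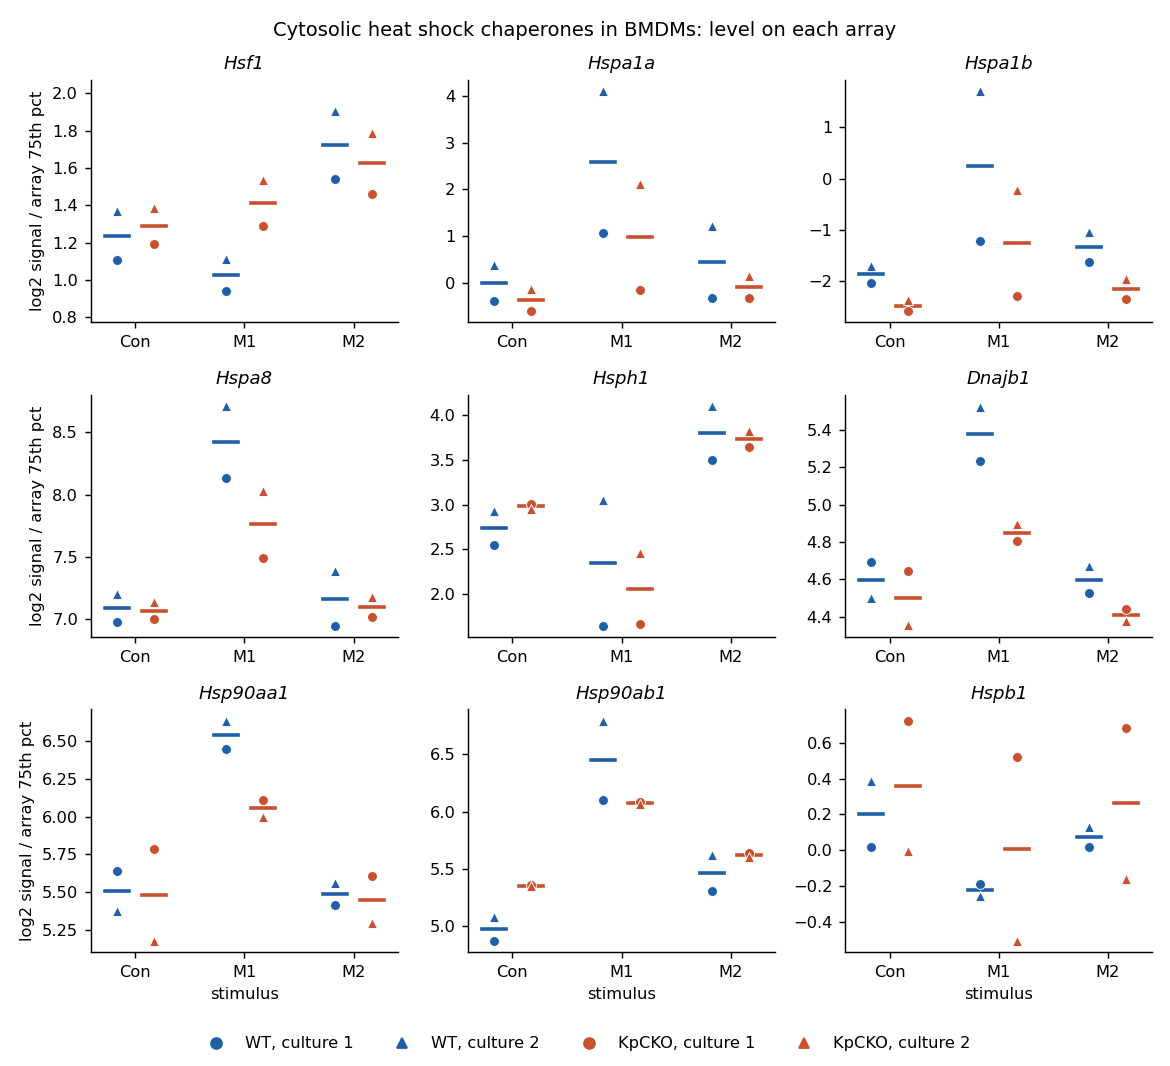
Level of each gene on each of the 12 arrays, as log2 signal relative to the 75th percentile of the array, by stimulus. Blue is WT and orange KpCKO, circles are culture 1 and triangles culture 2, and short lines are group means. The vertical axes differ between genes. In the M1 panels the WT means of *Hspa1a*, *Hspa1b*, *Hspa8*, *Dnajb1*, *Hsp90aa1* and *Hsp90ab1* lie above the KpCKO means, and the culture 2 arrays of *Hspa1a* and *Hspa1b* stand far above those of culture 1.

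The labels were checked on other genes first. *Keap1* was lower in KpCKO, with log2 differences of −1.46, −1.71 and −1.81 in Con, M1 and M2, and *Nqo1*, a classic Nrf2 target, was higher by 3.23, 3.50 and 3.52. *Nos2* rose by 8.96 in WT M1 and *Arg1* by 10.38 in WT M2 (limma, adjusted p of 0.0335 or less for each). The 7 macrophage markers on the array were above background on all 12 arrays, while *Elane* and *Ms4a1*, markers of neutrophil precursors and B cells, were at background on all 12. The summed signal of the macrophage markers was 405 to 469 in KpCKO Con against 583 to 639 in WT Con, and 560 to 662 in KpCKO M1 against 833 to 1041 in WT M1, as multiples of the 75th percentile. The list includes *Lyz2*, the gene of lysozyme M, whose locus drives Cre in KpCKO. Its part in the lower sum was not tested. The 75th percentile itself was 966 to 1166 on the Con and M2 arrays and 548 to 906 on the M1 arrays, with the lowest on WT M1 of culture 2. For cultures 1 and 2 it was 757 and 548 in WT M1, against 906 and 787 in KpCKO M1. M1 signals of KpCKO were therefore divided by the larger value in both cultures. The part of this divisor in the M1 genotype differences and M1 responses below was not tested on its own. All 4 arrays of a stimulus shared a slide. Genotypes were compared within a slide, while a stimulus and its slide cannot be told apart. In bulk RNA, fewer cells of a type and less RNA per cell cannot be told apart.

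The first comparison asked what the M1 stimulus did to the chaperones in WT cells. Of the 9 genes, 6 rose and none fell (limma over all genes, Benjamini-Hochberg adjusted p under 0.05), where 34.6% of the 22356 genes tested rose and 28.7% fell. The 6 were both inducible Hsp70 genes, the constitutive Hsp70 gene *Hspa8*, the J-domain gene *Dnajb1* and both cytosolic Hsp90 genes. The factor *Hsf1*, the exchange factor *Hsph1* and the small heat shock gene *Hspb1* did not pass. The median log2 difference of the 9 was 1.03, against 0.13 for all genes.

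*Hspa1a*, which encodes stress-inducible Hsp70, read −0.39 and 0.39 in WT Con and 1.07 and 4.11 in WT M1, for cultures 1 and 2. Both M1 arrays lay above both Con arrays, and the rise in culture 2 was the larger. The fold was 6.01 (log2 2.59 ± 0.64, SE, n = 2 cultures, limma adjusted p = 0.0102). Here and below the SE is that of limma, from a spread shared by all 6 groups. The rise itself was 1.46 in culture 1 and 3.72 in culture 2, and the SD was 2.15 in WT M1 against 0.55 in WT Con. *Hspa1b*, the gene of an almost identical Hsp70, read −2.03 and −1.70 in Con and −1.22 and 1.72 in M1. Its fold was 4.32 (log2 2.11 ± 0.69, limma adjusted p = 0.0314), but its dimmer probe (1.03, adjusted p = 0.342) and the mean of both (1.57, adjusted p = 0.118) did not pass. Both rises rested on culture 2. When WT M1 of culture 2 was left out they came to 1.62 (adjusted p = 0.0564) and 0.997 (adjusted p = 0.185), and when that of culture 1 was left out to 3.55 and 3.22. Leaving out the WT Con array of culture 2 also ended both calls (2.19, adjusted p = 0.0716, and 1.66, adjusted p = 0.170), and leaving out that of culture 1 ended the call of *Hspa1b* (2.56, adjusted p = 0.0527).

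*Hspa8*, the Hsp70 that cells make without stress, read 6.98 and 7.20 in WT Con and 8.14 and 8.72 in WT M1. The groups did not overlap, and the rise was 2.52-fold (log2 1.34 ± 0.14, limma adjusted p = 0.000229). *Hsp90ab1*, the constitutive Hsp90 gene, read 4.87 and 5.08 in Con and 6.11 and 6.80 in M1, a rise of 2.79-fold (log2 1.48 ± 0.19, limma adjusted p = 0.000497). *Hsp90aa1*, the stress-inducible Hsp90 gene, read 5.64 and 5.38 in Con and 6.45 and 6.64 in M1, a rise of 2.05-fold (log2 1.03 ± 0.20, limma adjusted p = 0.00333). *Dnajb1*, whose product hands substrates to Hsp70, read 4.69 and 4.50 in Con and 5.23 and 5.52 in M1, a rise of 1.72-fold (log2 0.78 ± 0.15, limma adjusted p = 0.00375). These 4 genes rose in both cultures and passed whichever single array was left out.

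The size of these 4 rises depended on the scaling. With quantile normalization, which gives all arrays the same distribution, the rise of *Hspa8* was 0.43 (adjusted p = 0.0118) and that of *Hsp90ab1* 0.63 (adjusted p = 0.0093), while *Hsp90aa1* at 0.17 (adjusted p = 0.406) and *Dnajb1* at 0.06 (adjusted p = 0.726) no longer passed. *Hspa1a* at 2.37 and *Hspa1b* at 2.11 moved little. The median of the 9 genes came to 0.17, with 4 higher and 1 lower that passed. The same change of scaling moved the median of all genes from 0.13 to −0.08 and the number that rose from 7724 to 6543, with 7934 rather than 6409 that fell.

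**Figure D2:**
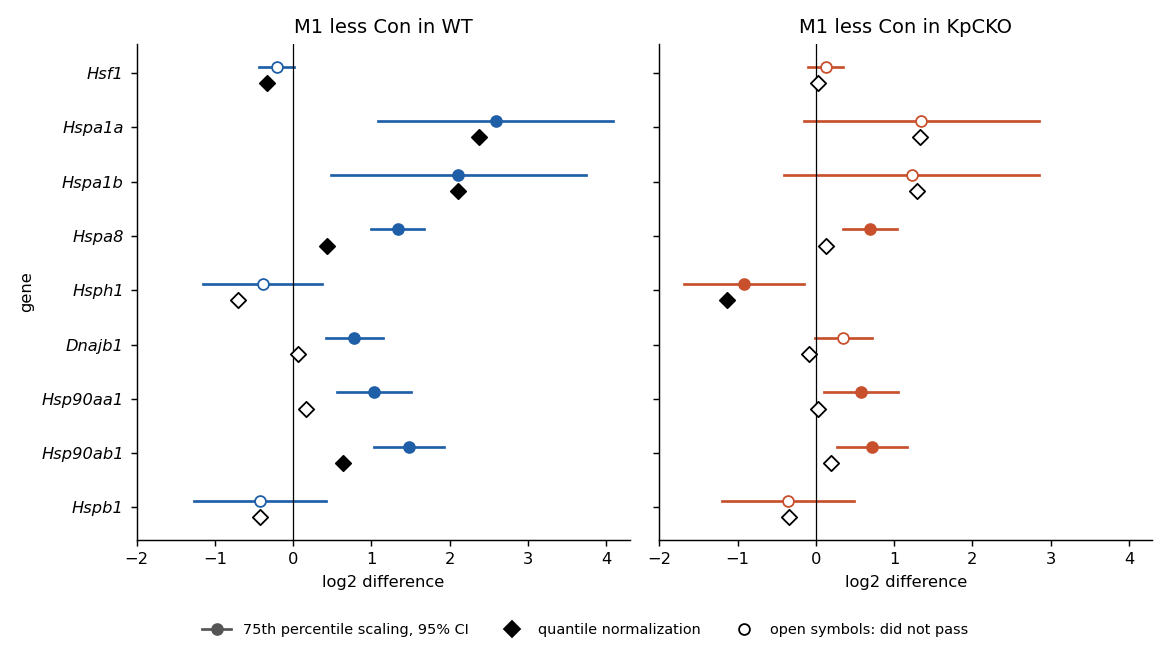
Log2 difference of M1 less Con for each gene in WT (left) and KpCKO (right). Circles with 95% confidence intervals are from 75th percentile scaling, black diamonds are from quantile normalization, and open symbols did not pass at an adjusted p of 0.05. In WT the circles of 6 genes are filled and lie above 0, and the diamonds of *Dnajb1* and *Hsp90aa1* lie near 0.

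The other 3 genes did not follow. *Hsph1* read 2.55 and 2.93 in WT Con and 1.64 and 3.06 in WT M1, so that the cultures moved in opposite directions (−0.90 and 0.13), and the difference of −0.39 ± 0.32 did not pass (limma adjusted p = 0.324). With WT M1 of culture 2 left out it was −0.90 (adjusted p = 0.031), and with that of culture 1 left out it was 0.13. *Hspb1*, which encodes a small heat shock protein that holds unfolded proteins without ATP, read 0.02 and 0.39 in Con and −0.19 and −0.26 in M1, with a difference of −0.42 ± 0.36 (adjusted p = 0.330). *Hsf1* read 1.11 and 1.37 in Con and 0.94 and 1.11 in M1, with a difference of −0.21 ± 0.09 (adjusted p = 0.0836), which passed with quantile normalization (−0.33, adjusted p = 0.0145). Its dimmer probe rose by 0.28 instead (adjusted p = 0.0309), so the 2 probes of *Hsf1* differ in direction.

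In KpCKO cells the M1 stimulus raised 3 of the 9 genes and lowered 1, where 24.8% of 22362 genes rose and 25.4% fell. *Hspa8* read 7.00 and 7.14 in KpCKO Con and 7.49 and 8.03 in KpCKO M1, a rise of 1.62-fold (log2 0.69 ± 0.14, limma adjusted p = 0.00656). *Hsp90ab1* read 5.36 and 5.35 in Con and 6.09 and 6.06 in M1, a rise of 1.65-fold (log2 0.72 ± 0.19, limma adjusted p = 0.0168). *Hsp90aa1* read 5.78 and 5.18 in Con and 6.11 and 6.00 in M1, a rise of 1.49-fold (log2 0.58 ± 0.20, limma adjusted p = 0.0465). In each of these 3 genes both M1 arrays lay above both Con arrays, and the share of all genes for which this held was not counted.

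*Hsph1* read 3.01 and 2.95 in KpCKO Con and 1.66 and 2.46 in KpCKO M1. It fell by 0.92 ± 0.32 on the log2 scale (limma adjusted p = 0.0495), so the gene of the Hsp70 exchange factor moved against the Hsp70 and Hsp90 genes. *Hspa1a* read −0.60 and −0.12 in KpCKO Con and −0.14 and 2.12 in KpCKO M1, and its difference of 1.35 ± 0.64 did not pass (limma adjusted p = 0.119). *Hspa1b* read −2.59 and −2.37 in Con and −2.28 and −0.23 in M1, with 1.22 ± 0.69 (adjusted p = 0.179). In both genes most of the difference came from culture 2, where it was 2.23 and 2.14, against 0.47 and 0.31 in culture 1. *Dnajb1* differed by 0.35 ± 0.15, *Hsf1* by 0.12 ± 0.09 and *Hspb1* by −0.35 ± 0.36, none of which passed.

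The calls in KpCKO M1 were less firm than those in WT. With quantile normalization none of the 3 rises passed (*Hspa8* 0.12, *Hsp90ab1* 0.19 and *Hsp90aa1* 0.03), while the fall of *Hsph1* did (−1.14, adjusted p = 0.0133). Leaving out the KpCKO Con array of culture 2 ended the call of all 3 (*Hspa8* 0.57, adjusted p = 0.0535, *Hsp90ab1* 0.60, adjusted p = 0.108, and *Hsp90aa1* 0.31, adjusted p = 0.286). The call of *Hsp90ab1* was also lost without the KpCKO M1 array of culture 1 (0.59, adjusted p = 0.0951), and those of *Hsph1* and *Hsp90aa1* were each lost without any of 9 of the 12 arrays, with adjusted p up to 0.277 and 0.286. Conversely, *Hspa1a* passed when either WT M1 array was left out (1.35, adjusted p = 0.0487).

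Whether the M1 response itself differed between genotypes was tested directly, as the M1 difference in KpCKO less that in WT. It was below 0 for 7 of the 9 genes, in both cultures for each of the 7, and above 0 for *Hsf1* and *Hspb1*. The median was −0.53, against −0.07 for all genes, and with quantile normalization it was −0.31, against 0.03. No member passed, where 0.0716% of 22354 genes did (16 genes by limma, 3668 at an unadjusted p under 0.05). The largest in size were *Hspa1a* at −1.24 (95% confidence interval −3.37 to 0.89, adjusted p = 0.517), *Hspa1b* at −0.88 (−3.19 to 1.42, adjusted p = 0.675), *Hsp90ab1* at −0.76 (−1.39 to −0.12, adjusted p = 0.251) and *Hspa8* at −0.64 (−1.13 to −0.16, adjusted p = 0.225). With quantile normalization *Hsp90ab1* was at −0.44 and *Hspa8* at −0.31. When 1 array was left out *Hspa1a* ran from −2.20 (WT M1 of culture 1) to −0.27 (WT M1 of culture 2), *Hspa1b* from −1.998 to 0.23 with the same arrays left out, and *Hsp90ab1* from −1.05 to −0.46. *Hsp90ab1*, *Hspa8* and *Hsf1* (0.33, interval 0.02 to 0.64, adjusted p = 0.281) were the 3 members with an unadjusted p under 0.05.

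The second question was how the genotypes differed within a stimulus. In Con, no member passed, where 2.22% of 22367 genes did, and none had an unadjusted p under 0.05. The differences of KpCKO less WT ran from −0.62 for *Hspa1b* to 0.38 for *Hsp90ab1*, with a median of −0.02. *Hsp90ab1* read 5.36 and 5.35 in KpCKO Con, above the 4.87 and 5.08 of WT Con on both arrays, and its interval was −0.07 to 0.83. In M2, no member passed either, where 1.93% of 22365 genes did, and the differences ran from −0.82 for *Hspa1b* to 0.19 for *Hspb1*, again with none at an unadjusted p under 0.05.

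In M1, 2 of the 9 genes differed, where 16.0% of 22354 genes did. *Hspa8* was lower in KpCKO and *Hsf1* was higher. *Hspa8* read 8.14 and 8.72 in WT M1 and 7.49 and 8.03 in KpCKO M1, a difference of −0.64 in culture 1 and −0.68 in culture 2. The fold was 1.58 (log2 −0.66 ± 0.14, limma adjusted p = 0.0284), and its second probe gave −0.83 (adjusted p = 0.0163). *Hsf1* read 0.94 and 1.11 in WT M1 and 1.29 and 1.53 in KpCKO M1, higher by 1.31-fold (log2 0.39 ± 0.09, limma adjusted p = 0.0366), but its second probe gave 0.01 (adjusted p = 0.934).

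The other Hsp70, J-domain and Hsp90 genes lay on the same side as *Hspa8* in M1 without passing. *Dnajb1* read 5.23 and 5.52 in WT M1 and 4.80 and 4.90 in KpCKO M1. The groups did not overlap, the difference was −0.53 ± 0.15 (limma adjusted p = 0.0596), and its dimmer probe passed with −0.70 (adjusted p = 0.036). *Hsp90aa1* read 6.45 and 6.64 against 6.11 and 6.00, again without overlap, with −0.49 ± 0.20 (adjusted p = 0.137). *Hsp90ab1* read 6.11 and 6.80 against 6.09 and 6.06, and differed by −0.02 in culture 1 and −0.73 in culture 2, with −0.38 ± 0.19 (adjusted p = 0.206).

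*Hspa1a* and *Hspa1b* had the largest differences in M1, −1.60 ± 0.64 (interval −3.10 to −0.09, adjusted p = 0.129) and −1.50 ± 0.69 (interval −3.13 to 0.13, adjusted p = 0.173). *Hspa1a* was lower in KpCKO in both cultures, with −1.20 in culture 1 and −1.99 in culture 2, and so was *Hspa1b*, with −1.06 and −1.94. The groups nevertheless overlapped, since both genotypes were high in culture 2. The median of the 9 genes in M1 was −0.49, against −0.09 for all genes.

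The genotype calls in M1 were sensitive to the scaling and to single arrays. With quantile normalization *Hspa8* was at −0.39 (adjusted p = 0.0556) and the median of the 9 at −0.22, and the split of all genes turned from 1660 higher and 1921 lower to 2030 and 1354. *Hspa8* lost its call without 6 of the 12 arrays, with adjusted p up to 0.150, and *Hsf1* without any of the 12, with adjusted p between 0.0523 and 0.151. With WT M1 of culture 1 left out, the differences were larger for *Hspa1a* (−2.56), *Hspa1b* (−2.61), *Hspa8* (−0.80), *Dnajb1* (−0.70) and *Hsp90ab1* (−0.68). With that of culture 2 left out they were −0.63, −0.39, −0.52, −0.36 and −0.0774 for the same 5 genes, and *Hsph1* turned from −0.29 to 0.23. *Dnajb1* passed with genes above background on all 12 arrays (adjusted p = 0.0379), with trended variances (adjusted p = 0.0306) and with the mean of its probes (−0.61, adjusted p = 0.0462), and *Hsf1* did not pass with the mean of its probes (0.20, adjusted p = 0.169).

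**Figure D3:**
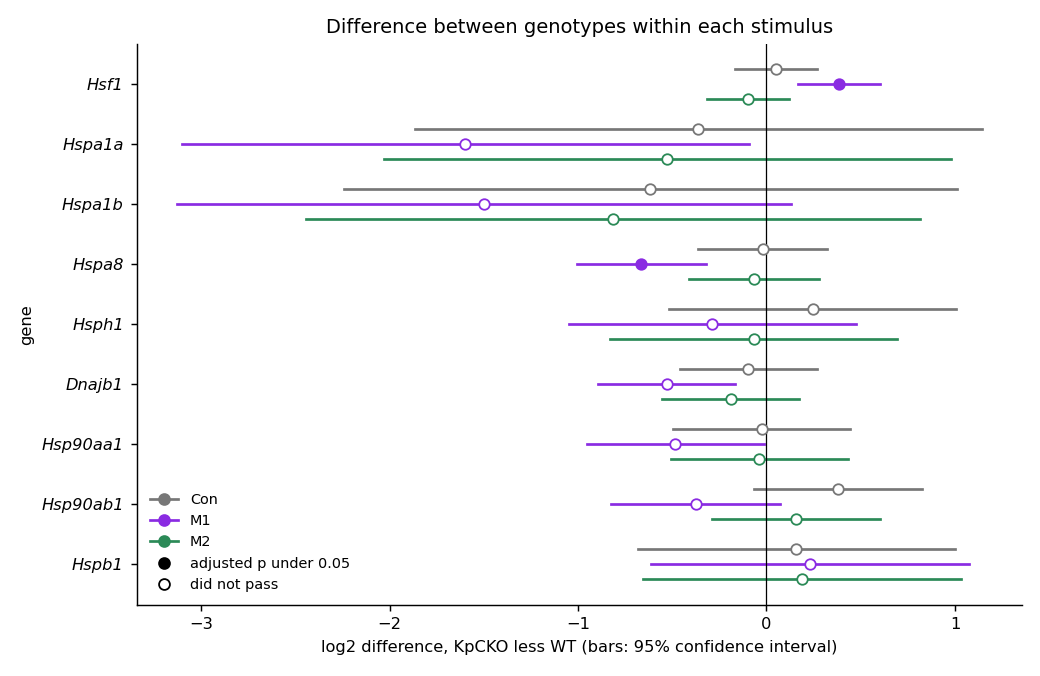
Log2 difference of KpCKO less WT for each gene in Con (grey), M1 (purple) and M2 (green), with 95% confidence intervals. Filled points passed at an adjusted p of 0.05. Only *Hsf1* and *Hspa8* in M1 are filled, and the intervals of *Hspa1a* and *Hspa1b* are the widest.

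Over the 3 stimuli together, KpCKO less WT ran from −0.98 for *Hspa1b* to 0.19 for *Hspb1*, and no member passed, where 17.2% of 22354 genes did. *Hspa8* was at −0.25 (limma adjusted p = 0.0855, and 0.0493 with quantile normalization), *Dnajb1* at −0.27 (adjusted p = 0.0804) and *Hspb1* at 0.19 (adjusted p = 0.558). The 3 members with an unadjusted p under 0.05 were *Hspa1b*, *Hspa8* and *Dnajb1*, and the share of all genes at that level is not given here. With WT M1 of culture 1 left out, *Hspa1b* was at −1.35.

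*Hspb1* differed between genotypes in opposite directions in the cultures, whatever the stimulus. In culture 1 KpCKO was higher by 0.71 in Con, 0.71 in M1 and 0.67 in M2, and in culture 2 it was lower, with −0.39, −0.25 and −0.29. The levels were 0.72, 0.52 and 0.68 in KpCKO of culture 1 and −0.0045, −0.51 and −0.16 in KpCKO of culture 2, while WT stayed between −0.26 and 0.39. The 3 arrays of a culture and genotype came from 1 mouse, so these are 2 KpCKO mice and not 6. The summed signal of the 5 fibroblast markers, all above background on all 12 arrays, moved with it. It was 52.9, 40.5 and 42.9 in KpCKO of culture 1, 27.8, 23.2 and 22.1 in KpCKO of culture 2, and 31.7 to 40.8 in WT, and its part in the result was not tested.

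The cultures also differed in the inducible Hsp70 genes. *Hspa1a* was higher in culture 2 than in culture 1 in all 6 groups, by 0.78 and 0.48 in WT and KpCKO Con, 3.04 and 2.25 in M1 and 1.55 and 0.48 in M2. *Hspa1b* followed with 0.33, 0.22, 2.94, 2.05, 0.60 and 0.37 in the same order. *Hsph1* differed by 1.41 in WT M1 and 0.80 in KpCKO M1, while *Dnajb1* differed by no more than 0.29 in any group. Each culture held 1 mouse of each genotype, and the difference in the Hsp70 genes was seen in both. Sex and culture cannot be told apart in it, and it was not tested. The summed signal of the 7 neutrophil markers on the array was lower in culture 2 in every group, at 3.15 to 9.76 against 13.0 to 16.5 in culture 1, and its part was not tested.

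The third question was the response to IL-4. In WT, 1 of the 9 genes changed, where 16.8% of 22366 genes did. *Hsf1* read 1.54 and 1.90 in WT M2, above its Con values of 1.11 and 1.37, and rose by 1.40-fold (log2 0.48 ± 0.09, limma adjusted p = 0.016), and its dimmer probe rose by 0.44 (adjusted p = 0.0203). The call was lost without either WT Con array (0.48, adjusted p = 0.106 and 0.104) or either WT M2 array (0.55, adjusted p = 0.0624, and 0.42, adjusted p = 0.118). *Hsph1* had the largest difference, from 2.55 and 2.93 in Con to 3.50 and 4.10 in M2. The groups did not overlap, but 2.10-fold (log2 1.07 ± 0.32) did not pass (limma adjusted p = 0.0652), although it did with quantile normalization (1.03, adjusted p = 0.0469). *Hsp90ab1* was higher in both cultures, 5.31 and 5.62 against 4.87 and 5.08, with 0.49 ± 0.19 (adjusted p = 0.123). The other 6 genes lay between −0.13 and 0.53.

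In KpCKO no member passed with IL-4, where 10.2% of 22366 genes did, and *Hsf1* (0.33 ± 0.09, limma adjusted p = 0.0676) was the only member with an unadjusted p under 0.05. *Hsph1* read 3.65 and 3.82 in KpCKO M2 against 3.01 and 2.95 in Con, with 0.75 ± 0.32 (adjusted p = 0.188). *Hsph1* therefore had its lowest group mean in M1 and its highest in M2 in both genotypes, and the difference between its M2 and M1 levels was not among the comparisons tested. The M2 response of the 2 genotypes differed by −0.31 (*Hsph1*) to 0.03 (*Hspb1*), and no member passed or had an unadjusted p under 0.05, where 0.00894% of 22365 genes passed (2 genes by limma).

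Where 2 probes matched a gene, which was so for 6 of the 9, they were compared. The probes of *Hspa1a*, *Hspa8*, *Dnajb1* and *Hsp90ab1* differed from each other by at most 0.20 in M1 less Con in WT and in KpCKO less WT in M1. Those of *Hspa1b* in WT M1 differed by 1.08. Its dimmer probe read −3.63 and −4.20 in WT Con but −5.53 and −5.46 in KpCKO Con, and was lower in KpCKO in all 3 stimuli, with −1.58, −1.46 and −2.06, and in both cultures of each. Over the 3 stimuli this was −1.70 ± 0.51 (limma over probes, adjusted p = 0.0631), against −0.98 ± 0.40 for the brighter probe. Its M1 difference in WT was 1.03 ± 0.89, with −0.78 in culture 1 and 2.83 in culture 2.

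**Figure D4:**
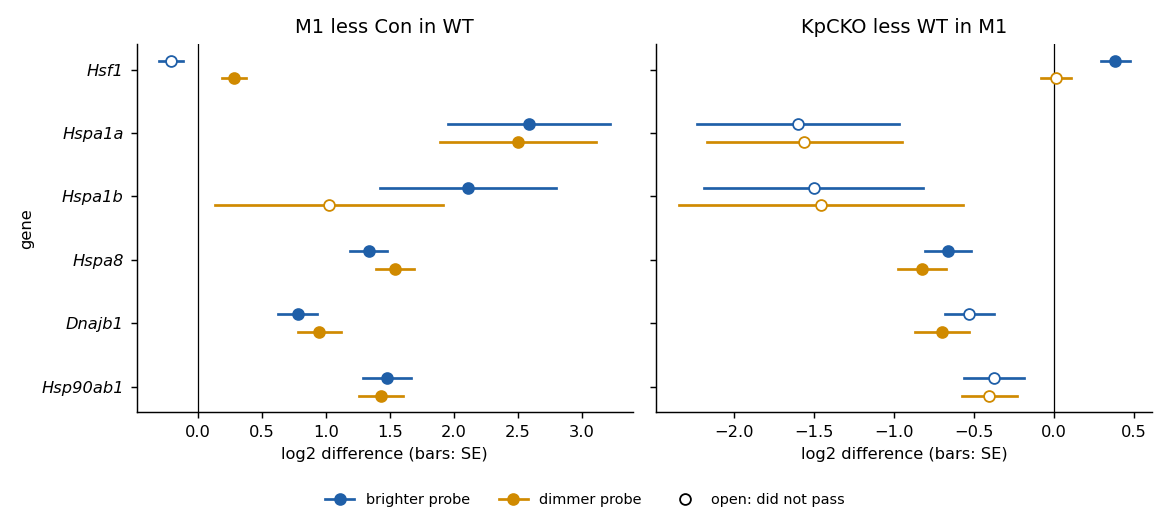
Log2 difference by each probe of the 6 genes with 2 probes, for M1 less Con in WT (left) and KpCKO less WT in M1 (right), with bars of 1 SE. Filled points passed at an adjusted p of 0.05. The probes of *Hsf1* lie apart in both panels and those of *Hspb1* are not drawn, since it has 1 probe.

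The cofactors of Hsp70 and Hsp90, with other genes known as Hsf1 targets, were described from a list of 28 genes, all of them tested. In WT M1, 15 rose, 2 fell and 11 did not pass, where 34.6% of all genes rose and 28.7% fell, with a median log2 difference of 0.52 against 0.13 for all genes. The largest rises were in *Dnaja2* (2.33 ± 0.21, limma adjusted p = 9.37e-05) and *Dnajb6* (1.90 ± 0.20, adjusted p = 0.000226), J-domain partners of Hsp70, and *Stip1* (1.74 ± 0.15, adjusted p = 7.58e-05), which links Hsp70 to Hsp90. The falls were in *Fkbp4* (−0.91 ± 0.19), an Hsp90-bound immunophilin, and *Ahsa2* (−0.79 ± 0.13), of the family of Hsp90 ATPase activators. With quantile normalization 9 of the 28 rose and 8 fell, and the median was −0.00172, while the 5 genes named kept their direction and passed. In KpCKO M1, 10 rose and 3 fell, where 24.8% and 25.4% of all genes did. *Dnaja2* (1.69 ± 0.21), *Cacybp* (1.51 ± 0.14) and *Stip1* (1.46 ± 0.15) rose the most, and *Fkbp4* (−0.91 ± 0.19), *Bag2* (−0.86 ± 0.11), a cofactor of Hsp70, and *Ahsa2* (−0.59 ± 0.13) fell. With quantile normalization 6 of the 28 rose in KpCKO M1 and 8 fell, with a median of 0.025.

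Between the genotypes none of the 28 passed in Con, M1 or M2, where 2.22%, 16.0% and 1.93% of all genes did. Over the 3 stimuli *Bag3* (0.52 ± 0.10, limma adjusted p = 0.0169), an Hsp70 cofactor that directs clients to autophagy, and *Dnajb4* (0.44 ± 0.11, adjusted p = 0.0394), a J-domain gene, were higher in KpCKO, and none was lower. Of all genes, 17.2% differed there in either direction, and the 3 arrays of a mouse counted as separate. With IL-4, *Fkbp5*, an Hsp90 cofactor of steroid receptors, rose by 2.05 ± 0.27 in WT and 2.08 ± 0.27 in KpCKO, *Stip1* rose by 0.67 ± 0.15 in WT, and *Dnajb4* fell by 0.98 ± 0.19 in WT and 0.92 ± 0.19 in KpCKO. The other 25 and 26 genes did not pass, where 16.8% and 10.2% of all genes changed in WT and KpCKO.

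Of 13 other Hsp70, Hsp110 and small heat shock genes of the cytosol, 12 were tested. In WT M1, 4 rose and 2 fell, shares near the 34.6% of all genes that rose and below the 28.7% that fell, led by *Hspa12b* (2.47 ± 0.12) and *Hspa2* (1.33 ± 0.22), distant and close relatives of *Hspa1a*, and *Hspb8* (−0.75 ± 0.24), a small heat shock gene that works with *Bag3*. In KpCKO M1, 3 rose and 2 fell, where 24.8% and 25.4% of all genes did. *Hspb8* was higher in KpCKO by 1.32 ± 0.24 in Con (limma adjusted p = 0.0432) and 1.32 ± 0.24 in M1 (adjusted p = 0.0162), the reverse of the sign in *Hspa1a*. It was higher by 1.24 ± 0.14 over the 3 stimuli, where the 3 arrays of a mouse counted as separate (limma adjusted p = 0.00192). With quantile normalization its difference in Con was 1.28 (adjusted p = 0.0523). *Hspa2* (−1.23 ± 0.22) and *Hspa12b* (−0.48 ± 0.12) were lower in KpCKO M1, and over the 3 stimuli *Hspa2* (−0.77 ± 0.13) and *Hspa14* (−0.22 ± 0.06, and −0.20 with adjusted p = 0.0606 with quantile normalization) were lower. Of all genes, 2.22% differed between genotypes in Con, 16.0% in M1 and 17.2% over the 3 stimuli, in either direction. With IL-4, *Hspa4l*, an Hsp110 gene, fell by 0.58 ± 0.13 in WT and 0.54 ± 0.13 in KpCKO, and none rose. Of all genes, 16.8% and 10.2% changed with IL-4 in WT and KpCKO.

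The genes most like the members were ranked by Pearson correlation over the 12 arrays, among 17166 other genes above background on all 12, as a description only, since the arrays share mice, cultures and slides. The mean of the 9 standardised members was most like *Copa* (r = 0.96), *Ormdl2* (0.96), *Metap2* (0.95), *Pdia5* (0.94) and *Itpa* (0.94). Of the members themselves, *Hspa1a* (0.93), *Hspa1b* (0.90), *Hsp90ab1* (0.89), *Hspa8* (0.88), *Dnajb1* (0.80) and *Hsp90aa1* (0.75) followed that mean, while *Hsph1* (0.02), *Hsf1* (−0.04) and *Hspb1* (−0.38) did not. Each member is itself part of that mean, which raises its correlation, so these values are not comparable with those of the other genes. *Hspa1a* varied most over the arrays (SD 1.37, against a median SD of 0.50 over all genes), and the genes most like it were *Magt1* (0.97), *Coq2* (0.96), *Sart3* (0.96), *Brd7* (0.96) and *Dnaja1* (0.96), a J-domain partner of Hsp70 that differed by 1.52 in WT M1 and 0.82 in KpCKO M1.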

How the data were processed

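Cy3-labelled total RNA of BMDMs was measured on 12 Agilent mouse arrays of 1 colour. Spots were read by Agilent Feature Extraction 10.7.3.1, per the file headers, and the authors deposited the background-subtracted intensity of 43379 spots besides the controls, median intensities of spot and background, and flags of each spot; these other columns were used only to drop outlier spots, to tell which probes were well above background and for the normexp alternative. A deposited matrix holds log2 values that the methods say were normalized with GeneSpring. On 40749 shared probes it correlated at r of 0.99996 or more on each array with the log2 intensity after 75th percentile scaling and median centring of each probe. No spot was saturated, and the deposited intensities are not scaled between arrays. The number of arrays, 2 in each group, limits the precision.

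Outlier spots were left out, spots of a probe averaged, and the 75th percentile of an array subtracted from its log2 intensities. Through their accessions 26690 of 41174 probes gave 18217 symbols (RefSeq, GRCm38.p6, for names only, since the array was annotated on another build), and the rest kept their identifiers. The brightest probe stood for a gene. limma 3.58.1 in R 4.3.3 was fitted to the 22367 genes that both arrays of some group showed well above background, with the 6 groups and the culture as a block (residual degrees of freedom 5, prior 1.92), and Benjamini-Hochberg adjusted p held to 0.05. The number of genes that could be tested was 22354 to 22367 by comparison. The pairing by culture comes from the description of the series. Deviations from the group means over 22084 genes correlated at 0.162 to 0.597 in 15 pairs of groups of the same culture. Arrays of a group correlated at r = 0.985 to 0.992 across genes.

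The 9 members and the lists were chosen with earlier results of these data known, and by a rule each member was described in each comparison, with the 3 largest rises and falls of each list among genes that passed, the 5 genes most like the members and the 5 most like the member of largest SD. Quantile normalization, a normexp correction with an offset of 50, the authors' matrix, other filters and probe rules, models without the culture, with only the groups compared, with mouse as a random block or with trended and robust variances, the methods' t-test and leaving out each array in turn were tried. The fit was tested on simulated data. Python 3.11.15 with pandas 2.3.3 and matplotlib 3.10.9 made the tables and plots. No protein or probe sequence was analysed here.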

Additional observations from a re-analysis of the deposited data

How the results depend on the processing

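The number of chaperone genes called depended on the processing wherever it was above 0. The share of all genes called under each setting, or without an array, is not set beside these counts, so they describe the members only. A lower count here cannot be told apart from fewer calls among all genes. For KpCKO against WT in M1, 2 in the report, it was 1 with quantile normalization, with no filter on dim probes and by the methods' t-test unadjusted, and 0 with the normexp correction, with no replicate block, with only the groups compared and by the methods' t-test with Benjamini-Hochberg adjustment, and 3 with genes above background on all 12 arrays and with trended variances. For M1 in WT, 6 in the report, it was 3 with only the groups compared and by the unadjusted t-test, 0 by the adjusted t-test, 4 with no replicate block, and 5 with quantile normalization and with the mean of a gene's probes. For M1 in KpCKO, 4 in the report, it was 2 with the normexp correction, with no filter and with mouse as a random block, 1 with quantile normalization, with no replicate block, with only the groups compared and by the unadjusted t-test, and 0 by the adjusted one. For M2 in WT, 1 in the report, it was 2 with quantile normalization, with genes above background on all 12 arrays and with trended variances, and 0 with the normexp correction, with no replicate block and by the t-test either way. For M2 in KpCKO, 0 in the report, it was 1 with genes above background on all 12 arrays and with trended variances, and 2 by the unadjusted t-test. Over the 3 stimuli, 0 in the report, it was 1 with quantile normalization and with the mean of a gene's probes, and 2 with trended variances. The block by culture removes a shared difference between cultures, and pairing was given by the design. The authors' matrix gave the same counts throughout.

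Leaving out 1 array at a time gave 0 to 5 genes for KpCKO against WT in M1, 0 to 3 over the 3 stimuli, 4 to 6 for M1 in WT, 1 to 5 for M1 in KpCKO and 0 to 3 for M2 in WT, and 0 elsewhere. None of the 13 calls changed sign under any alternative. Among the 53 values followed one by one, *Hsf1* in WT M1 was 0.037 with the mean of its probes and *Dnajb1* in KpCKO M1 was −0.0889 with quantile normalization, neither of which had passed in the report, and 12 values changed sign without 1 array. For *Hspb1* these ran from −0.17 to 0.63 (KpCKO against WT in M1), −0.10 to 0.48 (in M2), −0.86 to 0.0171 (M1 in WT), −0.75 to 0.0473 (M1 in KpCKO), −0.57 to 0.31 (M2 in WT), −0.39 to 0.19 (M2 in KpCKO), −0.37 to 0.51 (M1 response) and −0.41 to 0.47 (M2 response). For *Hsph1* they ran from −0.80 to 0.23 (KpCKO against WT in M1), −0.90 to 0.13 (M1 in WT) and −0.675 to 0.0502 (M2 response), and for *Hspa1b* from −1.998 to 0.23 (M1 response). Of the other 37 member values, none of which passed in the report, 11 between −0.10 and 0.08 changed sign under an alternative that kept all arrays and 24 between −0.53 and 0.33 without 1 array, and none of these reversed values passed. Where an array is left out, the lone array of its group is assumed to vary like the others. The causes of these changes were not tested.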

Other observations

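Chaperones were also described from 2 further lists, of the cytosolic chaperonin with prefoldin and of other compartments. Of 14 genes of the chaperonin TRiC, the ring that folds actin and tubulin, and of its partner prefoldin, 9 rose and none fell in WT M1, where 34.6% and 28.7% of all genes did, with a median of 0.42 against 0.13 for all genes, led by *Cct3* (0.89 ± 0.14), *Cct6a* (0.71 ± 0.12) and *Tcp1* (0.71 ± 0.09). With quantile normalization 3 rose and 5 fell, and *Tcp1* at 0.17 no longer passed. In KpCKO M1, where 24.8% of all genes rose, 4 rose (*Cct3* 0.59, *Tcp1* 0.49 and *Cct6a* 0.49 the most), of which *Tcp1* at 0.11 did not pass with quantile normalization. With that scaling 2 of the 14 rose in KpCKO M1 and 3 fell. With IL-4, *Cct3* (0.77 ± 0.14), *Pfdn6* (0.63 ± 0.10) and *Cct8* (0.42 ± 0.11) rose in WT and *Pfdn6* (0.50 ± 0.10) in KpCKO, where *Cct8* in WT did not pass with quantile normalization (0.33, adjusted p = 0.0701). Of all genes, 16.8% changed with IL-4 in WT and 10.2% in KpCKO, in either direction. Between the genotypes none of the 14 passed in Con, M1 or M2 or over the 3 stimuli, where 2.22%, 16.0%, 1.93% and 17.2% of all genes did.

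Of 20 mitochondrial and endoplasmic reticulum chaperones, 18 were on the array and all 18 were tested. In KpCKO M1, 3 were lower than in WT M1 and none was higher, where 16.0% of all genes differed in either direction, namely *Hspa5* (−1.01 ± 0.19, limma adjusted p = 0.0188), the Hsp70 of the endoplasmic reticulum, *Pdia6* (−0.91 ± 0.16, adjusted p = 0.0168), a disulfide isomerase, and *Hsp90b1* (−0.63 ± 0.16, adjusted p = 0.0419), the Hsp90 of that compartment, where *Hsp90b1* at −0.36 did not pass with quantile normalization. Over the 3 stimuli *Hspa5* (−0.59 ± 0.11), *Pdia6* (−0.55 ± 0.09) and *Pdia4* (−0.53 ± 0.14) were the lowest of 4 that were lower in KpCKO. Of all genes, 17.2% differed there in either direction, and the 3 arrays of a mouse counted as separate. In WT M1, 5 rose (*Pdia6* 0.74, *Hspa5* 0.72 and *Hyou1* 0.70 the most) and 4 fell (*Dnajb9* −2.36, *Sdf2l1* −0.80 and *Grpel2* −0.46 the most), where 34.6% of all genes rose and 28.7% fell, but with quantile normalization none rose and 11 fell, with *Pdia6* at −0.12 and *Hspa5* at −0.13. In KpCKO M1 *Hspa9* (0.72 ± 0.21), the Hsp70 of mitochondria, rose (0.33 and not past the threshold with quantile normalization) and *Sdf2l1* (−0.54 ± 0.18) fell, where 24.8% and 25.4% of all genes did. With quantile normalization none of the 18 rose in KpCKO M1 and 6 fell. With IL-4 *Pdia4* rose by 1.84 ± 0.23 in WT and 1.88 ± 0.23 in KpCKO, and *Hspd1* (0.68 ± 0.13) and *Trap1* (0.53 ± 0.14), mitochondrial chaperones, rose in WT. Of all genes, 16.8% changed with IL-4 in WT and 10.2% in KpCKO.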
